A study of Arabidopsis thaliana with 20 samples.

Results

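The 10 genes described here encode enzymes of jasmonate synthesis and proteins that accumulate in response to jasmonate in Arabidopsis thaliana. They were chosen by gene identifier, as LOX2 (AT3G45140), LOX3 (AT1G17420), LOX4 (AT1G72520), AOS (AT5G42650), AOC1 (AT3G25760), AOC2 (AT3G25770), OPR3 (AT2G06050), VSP1 (AT5G24780), VSP2 (AT5G24770) and CORI3 (AT4G23600), and are 10 of the 33602 genes in the chromatin-bound RNA tables. All 10 were found in those tables and in the mRNA table. The study set the rz-1b rz-1c double mutant against wild-type Col-0; the 2 genes encode nuclear proteins that bind RNA and act in splicing. The labels do not describe the alleles. Both genotypes were whole seedlings grown for 10 days at 22 °C with 16 h of light and 8 h of dark, and received no hormone or wounding treatment. Chromatin-bound RNA, the RNA left on washed chromatin after ribosomal and polyadenylated RNA had been depleted, was given as 2 replicate columns for the mutant and 2 for wild type, each covering 2 libraries. The mRNA table holds 1 value per genotype, from 3 libraries each.

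Jasmonates are lipid hormones of wounding, defence against chewing insects and stamen development. In the plastid, 13-lipoxygenases (LOX2, LOX3, LOX4 and LOX6) oxygenate linolenic acid, allene oxide synthase (AOS) and the allene oxide cyclases (AOC1 to AOC4) turn the product into 12-oxophytodienoic acid, and the peroxisomal reductase OPR3 reduces that acid before its side chain is shortened by beta-oxidation. The conjugate jasmonoyl-isoleucine binds the receptor COI1 together with JAZ repressors, whose breakdown frees MYC2 and its relatives. VSP1 and VSP2, vegetative storage proteins, and CORI3, a cystine lyase, are widely used markers of that response.

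The chromatin-bound columns differed in estimated depth, with relative read numbers of 2.80 and 2.98 in the mutant and 1.51 and 1 in wild type. The estimate is the most frequent ratio between 2 columns of the same gene's low values. Few genes shared that ratio: 35 of 1644 for mutant replicate 1, 58 of 1730 for mutant replicate 2 and 86 of 1383 for wild-type replicate 1. The 4 ribosomal RNA genes took 31.6% and 34.1% of the summed FPKM (fragments per kilobase of transcript, scaled to library depth) in the mutant columns and 53.6% and 60.5% in the wild-type columns. Of the disrupted genes, RZ-1C had 4.59 and 4.27 FPKM in the mutant and 16.7 and 13.1 FPKM in wild type. RZ-1B chromatin-bound RNA ran against its label, with 132 and 143 FPKM in the mutant and 10.5 and 9.42 FPKM in wild type. In the authors' deposited mRNA table both were lower in the mutant, RZ-1C at 2.77 FPKM against 31.7 FPKM and RZ-1B at 2.30 FPKM against 15.2 FPKM.

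The members were first compared in chromatin-bound RNA, which asks whether the double mutant changes the RNA still on the template. LOX3 and LOX4 rose and LOX2 fell, so the plastid lipoxygenases that make the same product moved in opposite directions. These were the 3 of 10 members called by limma at a Benjamini-Hochberg adjusted p under 0.05, where 17.4% of all 19694 genes tested were called. With columns rescaled by the median of ratios, the calls over all genes were 1329 higher and 1544 lower, in place of 2595 and 835. In each direction the members gave 2 higher genes, against 13.2% of all genes, and 1 lower, against 4.24%. The other 7 were not called. The median log2 change of the 10 members was -0.27, and that of all genes tested was 0.27. Replicate columns of the 2 genotypes did not overlap for 4 of 10 members, as for 65.2% of all genes: LOX3 and LOX4 were higher in the mutant, as 49.5% of all genes were without overlap, and LOX2 and AOC2 lower, as 15.7% were. All 10 passed the filter of a mean of 1 FPKM, VSP1 and VSP2 only through their wild-type values.

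LOX2, the 13-lipoxygenase behind much of the jasmonate made in wounded leaves, had 30.7 and 21.6 FPKM of chromatin-bound RNA in the mutant, against 125 and 83.1 FPKM in wild type. Both mutant columns lay below both wild-type columns. The means were 26.1 ± 6.46 FPKM in the mutant and 104 ± 29.3 FPKM in wild type (SD, n = 2 columns each), 3.97-fold higher in wild type. The log2 change on the log2(FPKM + 1) scale was -1.94 (SE 0.25, limma adjusted p = 0.00498). Without mutant replicate 2 the limma adjusted p was 0.0698.

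LOX3, which with LOX4 is needed for stamen development, had 123 and 135 FPKM of chromatin-bound RNA in the mutant, against 56.0 and 37.1 FPKM in wild type. The groups did not overlap. The means were 129 ± 8.24 FPKM in the mutant and 46.6 ± 13.4 FPKM in wild type (SD, n = 2 columns each), a 2.77-fold rise, and the log2 difference was 1.48 (SE 0.22, limma adjusted p = 0.00753). LOX4 had 179 and 224 FPKM in the mutant, against 116 and 92.2 FPKM in wild type. Again the mutant columns were both the higher ones, with means of 202 ± 32.4 FPKM in the mutant and 104 ± 17.1 FPKM in wild type (SD, n = 2 columns each), and the log2 change was 0.94 (SE 0.20, limma adjusted p = 0.0236). The LOX3 call was lost without either mutant column (limma adjusted p = 0.0705 without replicate 1 and 0.0912 without replicate 2). The LOX4 call was lost without either mutant column (limma adjusted p = 0.0930 without replicate 1 and 0.183 without replicate 2), without wild-type replicate 2 (0.0671), with no filter on low values (0.0603) and with columns rescaled by the median of ratios (log2 change 0.67, adjusted p = 0.0670).

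**Figure D1:**
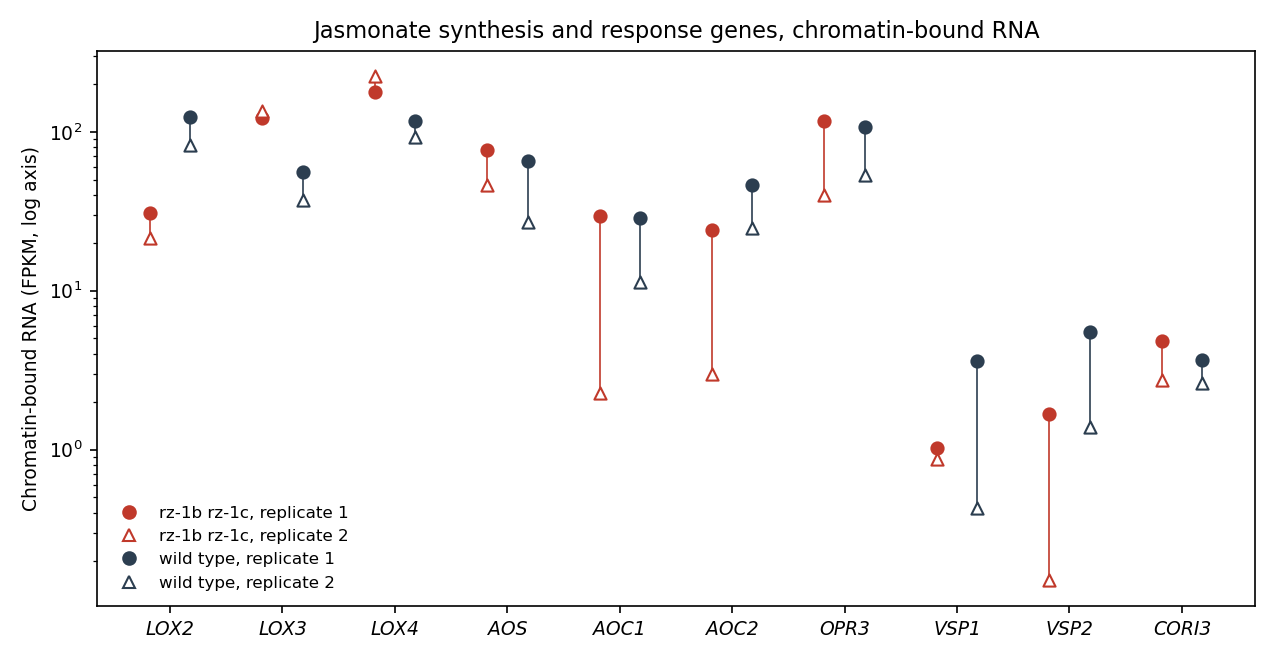
Chromatin-bound RNA of the 10 genes in FPKM on a log axis, with a point for each replicate column and a line joining the 2 columns of a genotype, mutant left of wild type. The LOX2 columns sit at 30.7 and 21.6 FPKM in the mutant and at 125 and 83.1 FPKM in wild type, while LOX3 and LOX4 are ordered the other way.

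The fourth 13-lipoxygenase, LOX6, a root and xylem enzyme that is no member, also rose, with 39.1 and 32.1 FPKM of chromatin-bound RNA in the mutant against 17.8 and 19.5 FPKM in wild type (log2 change 0.89, limma adjusted p = 0.0200). Within the summed FPKM of the 4 genes, LOX2 held 8.27% and 5.23% in the mutant columns and 39.6% and 35.8% in the wild-type columns. LOX3 held 33.1% and 32.6% in the mutant and 17.8% and 16.0% in wild type. The LOX4 share was 48.1% and 54.4% in the mutant and 37.0% and 39.8% in wild type. The sum itself was 371 and 413 FPKM in the mutant and 315 and 232 FPKM in wild type, so the family total was not lower in the mutant. Since these ratios are taken within a column, they do not depend on how columns were scaled to each other. LOX2 chromatin-bound RNA stood at 0.250 and 0.160 of the LOX3 level in the mutant columns, against 2.22 and 2.24 of it in the wild-type columns.

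The makeup of the family in mRNA was turned the other way. In the authors' deposited table LOX2 held 82.3% of the summed FPKM of the 4 genes in the mutant and 52.8% in wild type. LOX3 held 3.17% in the mutant and 12.2% in wild type, and LOX4 2.15% in the mutant and 19.1% in wild type, by the same deposited values of the authors' table. The deposited mRNA level of LOX2 was 26.0 times that of LOX3 in the mutant and 4.33 times in wild type. The 2 kinds of RNA were prepared and quantified separately, so the shares are compared within each.

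**Figure D2:**
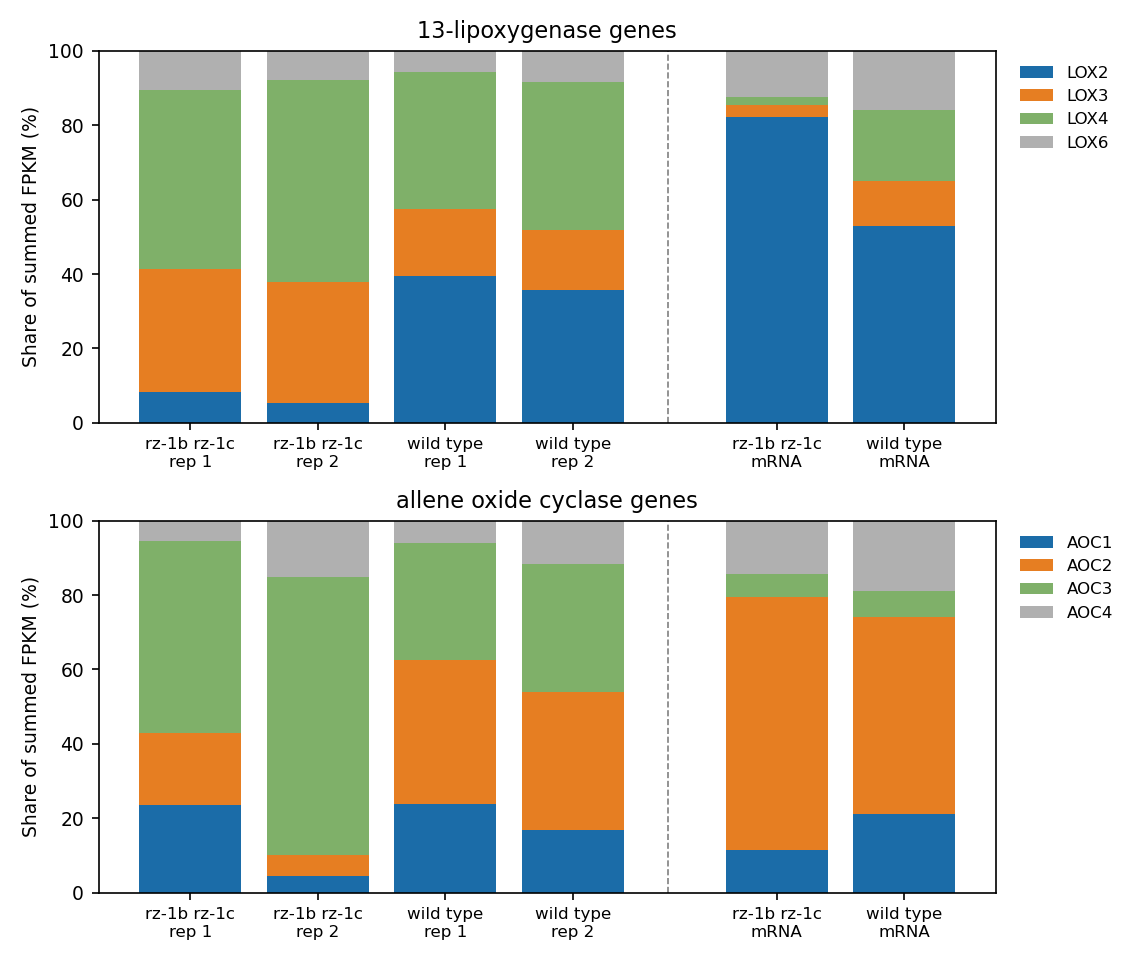
Share of each 13-lipoxygenase gene and each allene oxide cyclase gene in the summed FPKM of its family (percent), in the mutant and wild-type columns of chromatin-bound RNA and in the deposited mRNA values. LOX2 takes 8.27% and 5.23% of the chromatin-bound sum in the mutant against 39.6% and 35.8% in wild type, and 82.3% of the mRNA sum in the mutant against 52.8% in wild type.

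The later enzymes were not called in chromatin-bound RNA. AOS, the single gene for allene oxide synthase, had 76.4 and 46.0 FPKM in the mutant and 65.7 and 27.2 FPKM in wild type. Its columns overlapped, and the log2 change was 0.48 (SE 0.41, limma adjusted p = 0.436). Without wild-type replicate 1 AOS was called higher (limma adjusted p = 0.0492). OPR3, whose loss makes plants male-sterile, had 117 and 39.8 FPKM in the mutant and 107 and 53.3 FPKM in wild type. In both genotypes the first column was above the second by more than the genotypes differed (log2 change -0.15, SE 0.51, limma adjusted p = 0.859). Set beside AOS, LOX2 stood at 0.402 and 0.469 of the AOS level in the mutant columns, and at 1.90 and 3.05 of it in the wild-type columns.

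The cyclases AOC1 and AOC2 had the widest ratios between mutant columns among the synthesis genes. AOC2 had 24.1 and 2.97 FPKM in the mutant and 46.4 and 24.9 FPKM in wild type. Its mutant columns were both below the wild-type columns, but the log2 change of -1.81 had an SE of 0.76 and a limma adjusted p of 0.136. Leaving out 1 column gave -3.14 to -0.48, and AOC2 was called without mutant replicate 1 (limma adjusted p = 0.0352). AOC1 had 29.4 and 2.28 FPKM in the mutant and 28.5 and 11.3 FPKM in wild type. The groups overlapped (log2 change -0.93, SE 0.93, limma adjusted p = 0.499). AOC1, AOC2 and AOC3 are neighbours on chromosome 3 with no annotated gene between them in the RefSeq table, and they are similar enough in sequence that reads could be assigned to the wrong copy, so their separate values are uncertain.

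AOC3 did not follow its neighbours in the second mutant column. It had 64.4 and 38.8 FPKM in the mutant and 37.8 and 23.1 FPKM in wild type (log2 change 0.74, limma adjusted p = 0.133), and AOC4, on another chromosome, had 6.82 and 7.88 FPKM in the mutant and 7.10 and 7.82 FPKM in wild type. Of the summed FPKM of the 4 cyclase genes, AOC2 held 19.3% and 5.71% in the mutant and 38.7% and 37.1% in wild type. AOC3 held 51.6% and 74.7% in the mutant and 31.6% and 34.4% in wild type. AOC2 thus led in both wild-type columns and AOC3 in both mutant columns, a description of 2 columns each.

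The response markers had lower mean chromatin-bound levels than the synthesis genes in both genotypes, though CORI3 overlapped with AOC1 and AOC2 in the mutant. VSP1, a shoot storage protein related to acid phosphatases, had 1.03 and 0.872 FPKM in the mutant and 3.60 and 0.428 FPKM in wild type. The wild-type columns lay on either side of the mutant ones (log2 change -0.40, SE 0.52, limma adjusted p = 0.617). Without wild-type replicate 2 VSP1 was called lower (log2 change -1.24, limma adjusted p = 0.0350). VSP2 had 1.67 and 0.150 FPKM in the mutant and 5.47 and 1.39 FPKM in wild type, which also overlap (log2 change -1.17, SE 0.56, limma adjusted p = 0.183; -1.88 to -0.45 with 1 column left out). CORI3 had 4.83 and 2.72 FPKM in the mutant and 3.64 and 2.62 FPKM in wild type, and the log2 change, 0.18, was within its SE of 0.30 (limma adjusted p = 0.684). VSP1 and VSP2 lie on chromosome 5 with the single gene AT5G24775 between them, and as close copies they too may share reads. At these levels the log2(FPKM + 1) scale understates changes, and a difference in VSP1, VSP2 or CORI3 smaller than the spread between columns was not detectable.

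The mRNA of the same genes was compared through the authors' deposited values and q-values, which carry no error that can be recomputed. By a deposited q under 0.05, 3 members were higher in the mutant (LOX2, AOC2 and CORI3) and 5 were lower (LOX3, LOX4, AOC1, VSP1 and VSP2), and AOS and OPR3 were not called. Of the 20851 genes with a q under 1 in the authors' table, 34.6% were called, 16.9% higher and 17.7% lower. The median deposited log2 ratio of the members was -0.38, against -0.014 over the 18794 genes with at least 1 FPKM in both genotypes.

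VSP1 mRNA differed by the widest ratio among the members, at 1.41 FPKM in the mutant against 29.5 FPKM in wild type in the authors' deposited table, 20.9-fold higher in wild type (q = 0.000329). That q is the smallest in the table and is shared by 3168 genes. VSP2 mRNA fell less, to 6.99 FPKM in the mutant against 10.9 FPKM in wild type in the authors' deposited table (q = 0.00322). VSP1 made up 16.8% of the deposited VSP mRNA in the mutant and 72.9% in wild type, so the authors' table has VSP2 as the more abundant copy in the mutant and VSP1 in wild type. CORI3, a marker of the same hormone, went the other way, at 14.1 FPKM in the mutant against 5.71 FPKM in wild type in the authors' deposited table (q = 0.000329). The response markers therefore did not share a direction in mRNA.

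Among the lipoxygenases, LOX2 mRNA was 98.8 FPKM in the mutant and 47.0 FPKM in wild type in the authors' deposited table, 2.101-fold higher in the mutant (q = 0.000329). LOX3 mRNA fell to 3.80 FPKM in the mutant against 10.9 FPKM in wild type, and LOX4 mRNA to 2.58 FPKM in the mutant against 17.0 FPKM in wild type, with the same q in the authors' table. The 3 members called in chromatin-bound RNA, LOX2, LOX3 and LOX4, were thus called in the opposite direction in mRNA. LOX6, called higher in chromatin-bound RNA, was not called in mRNA. Its deposited mRNA was 14.9 FPKM in the mutant and 14.1 FPKM in wild type in the authors' table (q = 0.748). Of the cyclases, AOC1 mRNA was lower, at 30.3 FPKM in the mutant and 50.5 FPKM in wild type in the authors' deposited table (q = 0.000329). AOC2 mRNA was higher, at 181 FPKM in the mutant and 126 FPKM in wild type by the authors' values (q = 0.00141). AOS had 84.8 FPKM in the mutant and 83.1 FPKM in wild type in the authors' deposited table (q = 0.903), and OPR3 had 28.1 FPKM in the mutant and 30.3 FPKM in wild type (q = 0.651).

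Opposite calls were not peculiar to these genes. Calls in both kinds of RNA were made for 1560 genes, 7.92% of those tested, and of these 382 or 24.5% had opposite signs, by limma for chromatin-bound RNA and the authors' q for mRNA. Of 468 genes lower in chromatin-bound RNA and called in mRNA, 48.3% were higher in mRNA, as LOX2 was. Of 1092 genes higher in chromatin-bound RNA and called in mRNA, 14.3% were lower in mRNA, as LOX3 and LOX4 were. With 1 deposited mRNA value per genotype, the difference between the 2 kinds of RNA was not tested for any gene.

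**Figure D3:**
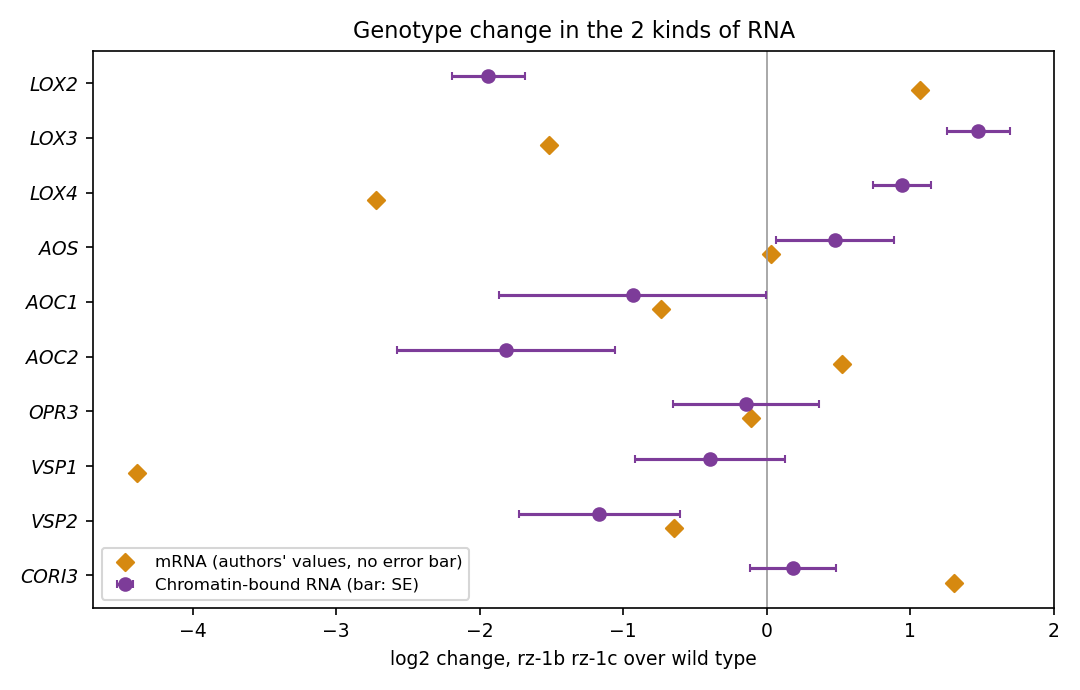
Log2 change, mutant over wild type, of each of the 10 genes in chromatin-bound RNA (on the log2(FPKM + 1) scale, with its SE over 2 columns per genotype) beside the log2 ratio of the deposited mRNA values, which have no error. LOX2 lies at -1.94 and 1.07, and LOX3 at 1.48 and -1.52, so these genes take opposite signs in the 2 kinds of RNA.

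FPKM is per length, so levels of different members can be ordered within a column. In the mutant, LOX4 led, followed by LOX3, then OPR3 and AOS, then LOX2, AOC1, AOC2 and CORI3, with VSP1 and VSP2 last. The ranges of the 2 columns did not overlap between LOX4 and LOX3, LOX3 and OPR3, AOS and LOX2, or CORI3 and VSP1, and the other neighbours overlapped. In wild type the chromatin-bound levels ran LOX4, LOX2, OPR3, LOX3, AOS, AOC2 and AOC1, each overlapping its neighbour, and then VSP2, CORI3 and VSP1, which overlapped among themselves and lay below AOC1. Among all genes tested, LOX2 stood at percentiles 85.8 and 78.2 in the mutant columns and 98.9 and 98.0 in the wild-type columns. LOX4 was at 99.4 and 99.5 in the mutant and 98.7 and 98.3 in wild type.

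The order of deposited mRNA levels was another. In the authors' table AOC2, LOX2 and AOS led in the mutant, and AOC2, AOS and AOC1 in wild type. LOX3, LOX4 and VSP1 were the lowest in the mutant, and VSP2, LOX3 and CORI3 in wild type. LOX4 thus headed the chromatin-bound order in the mutant. In wild type LOX4 and LOX2 both averaged 104 FPKM, and LOX2 was the higher in replicate 1. The deposited LOX4 mRNA, 2.58 FPKM in the mutant and 17.0 FPKM in wild type, was among the 4 lowest of the members in the authors' table.

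The spread between replicate columns was wide for these genes. For 8 of 10 members replicate 1 was above replicate 2 in both genotypes, against 42.0% of all genes tested, and for 5 of 10 it was more than 1.5 times above in both, against 2.67%. Those 5 were AOS, AOC1, AOC2, OPR3 and VSP2. Taken singly, 6 members passed 1.5 times in the mutant, beside 8.88% of all genes, and 7 in wild type, beside 19.1%. In the mutant, replicate 1 was 12.9 times replicate 2 for AOC1, 8.12 times for AOC2 and 11.1 times for VSP2. In wild type these ratios were 2.51 for AOC1, 1.86 for AOC2 and 3.93 for VSP2. LOX2 had close ratios in both genotypes, 1.42 in the mutant and 1.499 in wild type, and LOX3 and LOX4 were below 1 in the mutant, at 0.913 and 0.796. The median ratio over the 10 members was 1.72 in the mutant and 1.94 in wild type, and over all genes 1.07 in the mutant and 1.14 in wild type. Nothing in the labels ties the first columns of the 2 genotypes together, and whether the plants differed in harvest or handling was not tested.

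The 12 JAZ repressor genes examined, many of which jasmonate induces, feed back on its signalling. Their replicate columns differed in the same direction but not by the same amount. Replicate 1 was above replicate 2 in both genotypes for 12 of 12, beside 42.0% of all genes tested. It was more than 1.5 times above in both for 7 of 12, beside 2.67%. The ratio was 1.09 in the mutant and 1.07 in wild type for JAZ11, and 3.88 and 2.84 for JAZ9. JAZ9, for example, had 49.7 and 12.8 FPKM in the mutant and 94.1 and 33.1 FPKM in wild type (log2 change -1.11, limma adjusted p = 0.261). Of the 12, limma called JAZ4 higher in the mutant, beside 13.2% of all genes tested.

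**Figure D4:**
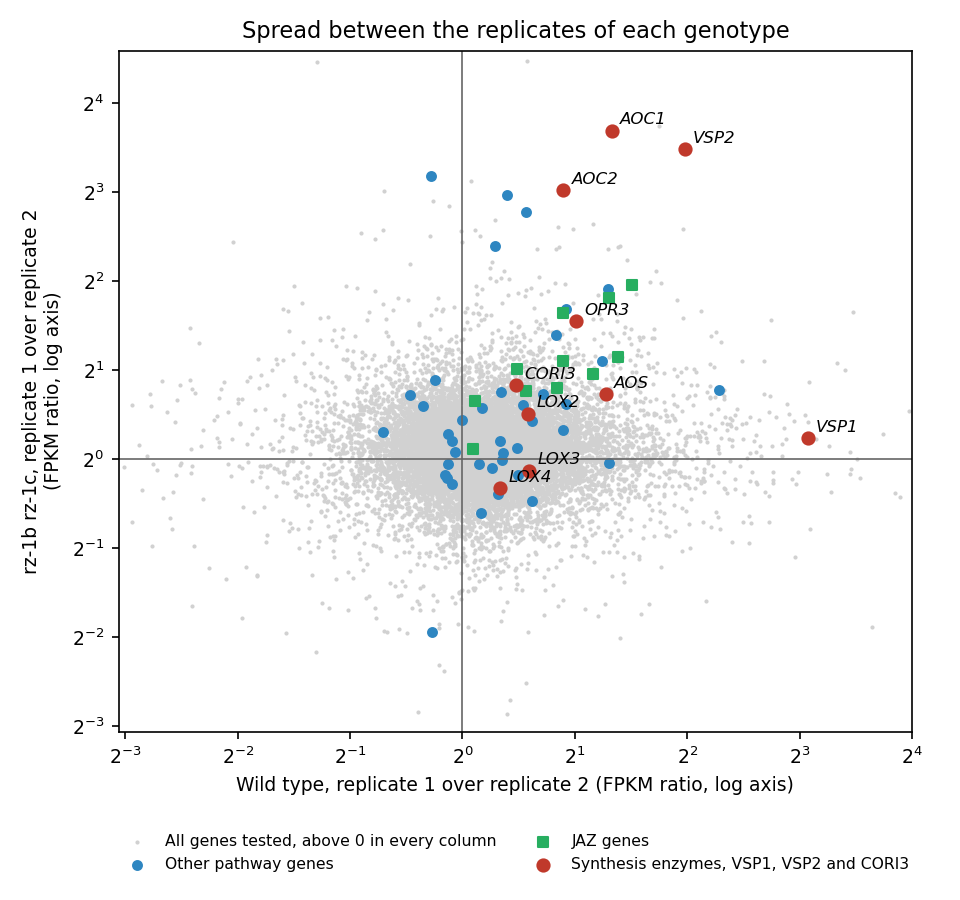
Ratio of replicate 1 to replicate 2 in the mutant plotted against the same ratio in wild type, on log axes, for the 10 genes, the JAZ genes, other pathway genes and all genes tested; genes at 0 in a column or beyond the axes are not drawn. AOC1 at 12.9 and 2.51, AOC2 at 8.12 and 1.86 and VSP2 at 11.1 and 3.93 (mutant and wild type) lie in the upper right, away from the bulk of genes, whose medians are 1.07 in the mutant and 1.14 in wild type.

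The other genes of the pathway were examined as 61 genes in 4 groups, synthesis, signalling, turnover and response, of which 53 passed the filter in chromatin-bound RNA. Of these, limma called 4 higher and 5 lower at an adjusted p under 0.05 (9 of 53, beside 17.4% of all genes), with a median log2 change of 0.0081. Leaving out mutant replicate 1 gave 2 calls, leaving out mutant replicate 2 gave 0 (19 at an unadjusted p under 0.05) and leaving out wild-type replicate 2 gave 5. Median-of-ratios scaling gave 1 higher and 7 lower, the calls of LOX6, OPCL1 and JAZ4 being lost, and quantile scaling 3 higher and 8 lower. By the authors' q-values for mRNA, 7 of the 51 genes with a q under 1 were higher and 9 lower, beside 16.9% and 17.7% of all genes. The median log2 ratio of these pathway genes was -0.054.

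In synthesis, the median log2 change in chromatin-bound RNA was 0.32. Of 15 genes tested, 3 were called higher and 0 lower, beside 13.2% and 4.24% of all genes tested. The 3 were LOX6, OPCL1, a ligase that activates the OPR3 product for beta-oxidation, and FAD8, a plastid desaturase that makes linolenic acid. OPCL1 had 127 and 132 FPKM in the mutant and 75.9 and 68.5 FPKM in wild type (log2 change 0.83, SE 0.16, limma adjusted p = 0.0179). Its mRNA ran the other way, at 16.5 FPKM in the mutant against 31.6 FPKM in wild type in the authors' deposited table (q = 0.000329). FAD8 had 23.3 and 22.2 FPKM in the mutant and 13.5 and 10.5 FPKM in wild type (log2 change 0.88, limma adjusted p = 0.0243), and its mRNA was higher too, at 35.3 FPKM in the mutant against 20.9 FPKM in wild type in the authors' deposited table (q = 0.000329).

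The mRNAs of 3 enzymes of peroxisomal beta-oxidation, which also break down seed oil, were higher in the mutant. In the authors' deposited table the thiolase KAT2 had 388 FPKM in the mutant and 162 FPKM in wild type, the multifunctional protein MFP2 had 176 FPKM in the mutant and 41.6 FPKM in wild type, and the acyl-CoA oxidase ACX1 had 77.2 FPKM in the mutant and 46.8 FPKM in wild type (q = 0.000329 for each). In chromatin-bound RNA none of the 3 was called by limma (adjusted p = 0.0874 for KAT2, 0.143 for MFP2 and 0.492 for ACX1). KAT2 had 81.3 and 92.3 FPKM there in the mutant and 116 and 129 FPKM in wild type, without overlap, and it was called lower under median-of-ratios and quantile scaling. The mRNA of 7 seed marker genes summed to 592 FPKM in the mutant and 10.2 FPKM in wild type in the authors' deposited table. Of the 6 with a q under 1, 5 were called higher, beside 16.9% of all genes. The part of seed RNA in the beta-oxidation values was not tested.

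In signalling, the median log2 change in chromatin-bound RNA was 0.16. Beside 13.2% higher and 4.24% lower over all genes tested, 0 of the 20 signalling genes were called lower and 1 was called higher. This was JAZ4, named after its values were seen, with 1.99 and 1.94 FPKM in the mutant and 0.570 and 0 FPKM in wild type (limma adjusted p = 0.0454); it passed the filter of 1 FPKM only through its mutant columns. MYC2, the main transcription factor of the response, had 98.6 and 137 FPKM in the mutant and 111 and 72.3 FPKM in wild type, which overlap (log2 change 0.37, limma adjusted p = 0.339). In mRNA 4 of the 19 signalling genes with a q under 1 were lower and 0 higher in the authors' deposited table, beside 17.7% lower and 16.9% higher over all genes. MYC2 mRNA was 18.2 FPKM in the mutant against 48.6 FPKM in wild type (q = 0.000329, the authors' table). The others were JAZ9, at 16.8 FPKM in the mutant against 30.7 FPKM in wild type, JAZ3, at 9.74 FPKM against 17.9 FPKM, and JAZ12, at 42.8 FPKM against 57.0 FPKM, all from the authors' deposited table.

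In turnover, none of 9 genes tested was called by limma in chromatin-bound RNA (median log2 change -0.20). Of the 9, 3 had an unadjusted limma p under 0.05, beside 7046 of all 19694 genes tested. In mRNA 1 of 8 was higher and 2 were lower in the authors' deposited table, beside 16.9% and 17.7% of all genes. The lower ones were CYP94B1, a hydroxylase of jasmonoyl-isoleucine, with 4.07 FPKM in the mutant against 10.8 FPKM in wild type (q = 0.000329), and the sulfotransferase ST2A, with 6.02 FPKM in the mutant against 10.4 FPKM in wild type (q = 0.000620), both from the authors' table. The higher one was the hydroxylase CYP94B3, at 4.20 FPKM in the mutant against 1.96 FPKM in wild type in the authors' deposited table, named after its values were seen.

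The group of other response genes had a median log2 change of -1.13 in chromatin-bound RNA, against 0.27 for all genes tested. Of 9 genes tested, limma called 5 lower and 0 higher, beside 4.24% lower and 13.2% higher over all genes tested. CLH1, a chlorophyllase induced by coronatine, had 5.26 and 2.44 FPKM in the mutant and 24.8 and 10.5 FPKM in wild type (log2 change -1.89, adjusted p = 0.0274). The tyrosine aminotransferase TAT3 had 4.05 and 0.520 FPKM in the mutant and 10.8 and 8.18 FPKM in wild type (log2 change -1.91, limma adjusted p = 0.0448). The lectin gene JAL35, also called JR1, had 18.1 and 11.8 FPKM in the mutant and 47.0 and 24.8 FPKM in wild type (log2 change -1.17, limma adjusted p = 0.0495). The columns of the mutant lay below those of wild type for each of these genes, as for the transcription factor genes NAC055 (log2 change -1.13, limma adjusted p = 0.0350) and NAC019 (log2 change -1.61, limma adjusted p = 0.0164), which act downstream of MYC2; NAC019 was named after its values were seen and passed the filter of 1 FPKM only through its wild-type columns. The calls of TAT3 and JAL35 were lost with a pseudocount of 0.1, which left 3 lower calls, and without the variance trend. In place of these 5 lower calls, limma made 2 without wild-type replicate 1, 3 without wild-type replicate 2, 1 without mutant replicate 1 and 0 without mutant replicate 2.

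VSP1, VSP2 and CORI3 were not called with these response genes. The mRNA of the group was mixed in the authors' deposited table. Of its 9 genes with a q under 1, 2 were higher and 2 lower, beside 16.9% and 17.7% of all genes. The higher ones, HPL1 at 1.51 FPKM in the mutant against 0.635 FPKM in wild type (q = 0.0197) and NATA1 at 0.833 FPKM in the mutant and listed at 0 in wild type (q = 0.000329), are from the authors' table and were named after their values were seen. TAT3 mRNA was 2.11 FPKM in the mutant against 5.57 FPKM in wild type, and JAL35 mRNA 51.3 FPKM against 143 FPKM, in the authors' deposited table (q = 0.000329 for each). CLH1, at 18.3 FPKM in the mutant and 17.0 FPKM in wild type (q = 0.679), and NAC055, at 6.70 FPKM in the mutant and 6.52 FPKM in wild type (q = 0.921), were not called by the authors' table.

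**Figure D5:**
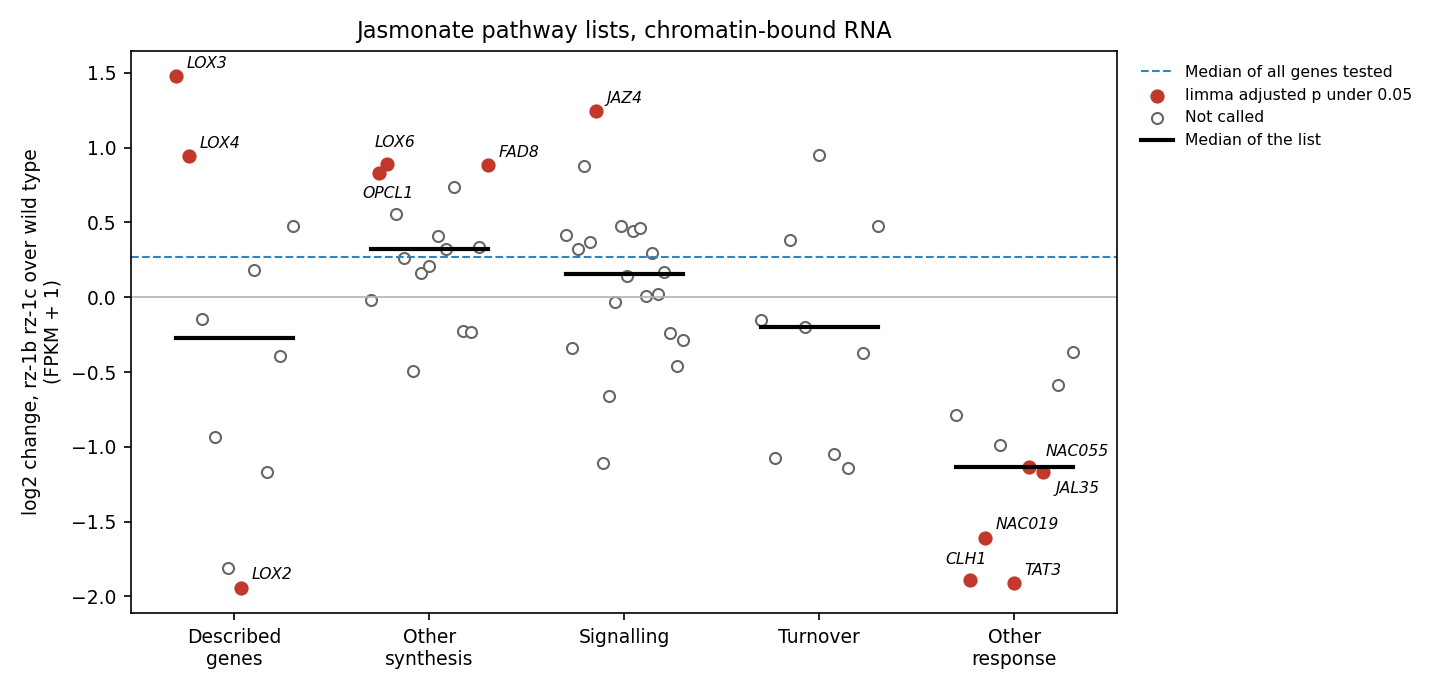
Log2 change in chromatin-bound RNA, mutant over wild type on the log2(FPKM + 1) scale, for the 10 genes and the 4 other groups of pathway genes. Filled points passed a limma adjusted p under 0.05 and are named, a bar marks each group's median, and the dashed line is the median of all genes tested at 0.27; the response group has its median at -1.13 and the other synthesis genes at 0.32.

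Lipoxygenases outside the pathway gave a further comparison. LOX1 and LOX5 are 9-lipoxygenases, which oxygenate the same fatty acids at another carbon and do not feed jasmonate synthesis. LOX1 had 23.0 and 19.3 FPKM of chromatin-bound RNA in the mutant and 20.9 and 41.7 FPKM in wild type (log2 change -0.47, limma adjusted p = 0.310). LOX5 had 2.78 and 1.90 FPKM in the mutant and 3.37 and 2.42 FPKM in wild type (limma adjusted p = 0.588). Their mRNA differed in opposite directions in the authors' deposited table, LOX1 at 80.7 FPKM in the mutant and 24.6 FPKM in wild type, and LOX5 at 1.67 FPKM in the mutant and 4.70 FPKM in wild type (q = 0.000329 for each).

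Genes whose chromatin-bound pattern over the 4 columns was most like that of a member were found by the distance between centred log2(FPKM + 1) values, among the 13939 genes that averaged 5 FPKM or more. The 5 nearest to LOX2 were CYP708A2 (distance 0.101), CRK41 (0.260), CRK18 (0.271), AT4G22520 (0.342) and ASA1 (0.383). CYP708A2, a cytochrome P450 that hydroxylates the root triterpene thalianol, had 3.92 and 2.78 FPKM in the mutant and 19.9 and 12.1 FPKM in wild type. Nearest to VSP2 were AT4G29700 (0.366), IAR3 (0.456), JAZ9 (0.472), JAL35 (0.591) and PMEPCRA (0.602), of which IAR3, JAZ9 and JAL35 are in the pathway lists above. VSP2 itself averaged below 5 FPKM, where the log2(FPKM + 1) scale understates changes. In FPKM, mutant replicate 1 was 11.1 times replicate 2 for VSP2. That ratio was 2.62 for IAR3, 3.88 for JAZ9 and 1.54 for JAL35, so the likeness is partly one of scale. For LOX3 the 5 nearest were AT4G02005 (0.0566), AT3G04445 (0.0933), AT2G07830 (0.0952), AT3G15010 (0.109) and AT2G07775 (0.109). With 4 columns, a small distance shows log2 differences of like size among those columns and little more.

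In whole seedlings, fewer cells of a type and less RNA per cell cannot be told apart, so marker levels are given beside these values. The 12 leaf markers summed to 2765 and 2876 FPKM of chromatin-bound RNA in the mutant and 3214 and 2725 FPKM in wild type. Of these, 3 were called higher and 1 lower by limma, beside 13.2% and 4.24% of all genes tested. The 6 root markers summed to 41.0 and 50.6 FPKM in the mutant and 18.5 and 16.6 FPKM in wild type. Here 2 were called higher and 1 lower, beside the same 13.2% and 4.24%. IRT1 was higher, with 9.83 and 14.7 FPKM in the mutant against 0.243 and 0 FPKM in wild type. FRO2 was higher too, with 14.7 and 20.3 FPKM against 0.148 and 0 FPKM. Both genes passed the filter of 1 FPKM only through their mutant columns. The higher root sum in the mutant rested on these 2 genes. PRP3 was lower, at 2.68 and 2.57 FPKM in the mutant against 5.77 and 5.74 FPKM in wild type. COBL9, SCR and PLT1 were not called. The mRNA of the 6 root markers summed to 54.7 FPKM in the mutant and 116 FPKM in wild type in the authors' deposited table. There 0 were called higher and 4 lower, beside 16.9% and 17.7% of all genes. The 7 seed markers summed to 68.1 and 94.1 FPKM in the mutant and 4.32 and 1.00 FPKM in wild type, where CRU2 was at 0 in both columns, and the 4 that passed the filter of 1 FPKM did so only through their mutant values. The part of leaf, seed and root RNA in the member values was not tested.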

How the data were processed

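Per the labels' protocols, nuclei were isolated from ground seedlings, chromatin was washed with urea, ribosomal and polyadenylated RNA were removed, and strand-specific libraries were made. The authors deposited FPKM per gene for chromatin-bound RNA, in a table per genotype with each column scaled to its own total, and for mRNA a table of 1 value per genotype, read here as FPKM, and a q-value. The submitters' processing notes name TAIR10, Cuffdiff 2.2.1, Cufflinks, StringTie 1.3.4d, HISAT2 2.0.5 and TopHat2 2.1.1 without roles. The sources used here do not say how the 2 libraries of a replicate number became 1 column, and 1 column that repeats mutant replicate 2 was not used. The labels name no separate cultures or sowings for the replicates, and the p-values therefore cover the spread among these columns, which may be technical.

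The 19694 genes that averaged 1 FPKM or more over the 4 columns were tested on log2(FPKM + 1) with limma 3.58.1 (R 4.3.3, trended variance) and Benjamini-Hochberg adjustment over all of them, at 0.05. An exact permutation test of 2 against 2 cannot go below 0.333. Read counts were not recovered, and only relative depth is given. mRNA calls use the authors' q-values under 0.05. The members and lists were chosen with earlier results of these data known. Pathway genes named were those called in either kind of RNA that reached 5 FPKM in the higher genotype of that RNA, at most 6 per list, and lipoxygenase and cyclase paralogs. Names and neighbours come from a RefSeq table of TAIR10.1, which held all 100 list genes. Alternatives covered pseudocount, filter, scaling, trend, a replicate block and each replicate left out, and the test was checked on simulated data. The iCLIP libraries were not analysed here.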

Additional observations from a re-analysis of the deposited data

Results flagged for a closer look

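Chromatin-bound RNA and mRNA moved in opposite directions for 4 pathway genes, each called in both, by limma at an adjusted p under 0.05 and by the authors' q under 0.05. LOX2 had a log2 change of -1.94 in chromatin-bound RNA and a deposited mRNA log2 ratio of 1.07 in the authors' table. LOX3 had 1.48 in chromatin-bound RNA and -1.52 in the authors' mRNA table, and LOX4 had 0.94 in chromatin-bound RNA and -2.72 in the authors' mRNA table. OPCL1, the ligase that acts after OPR3, had 0.83 in chromatin-bound RNA and -0.94 in the authors' mRNA table. With columns rescaled by the median of ratios, the chromatin-bound calls of LOX2 and LOX3 were kept and those of LOX4 and OPCL1 were lost. The difference between the kinds of RNA was not tested, since mRNA has 1 deposited value per genotype, and 24.5% of all genes called in both had opposite signs.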

How the results depend on the processing

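With pseudocounts of 0.1 and 5, a filter of 5 FPKM and no variance trend, the counts of calls over all genes, members and other pathway genes stayed within 1.5 times those reported. With no filter, limma called 1931 of all genes and 4 other pathway genes. Leaving out 1 column gave 227 to 4988 calls over all genes, 0 to 4 members (0 without mutant replicate 2, where 3 had an unadjusted p under 0.05) and 0 to 9 other pathway genes; the lone column is then assumed to vary like the other genotype. Over all genes, median-of-ratios scaling gave 1329 higher and 1544 lower genes, and quantile scaling 1445 and 1541, in place of 2595 and 835. Among members, LOX2 ranged from -2.23 to -1.65 and LOX3 from 1.18 to 1.77 over the alternatives. Direction turned for uncalled members: leaving out 1 column gave -0.14 (without wild-type replicate 2) to 1.097 for AOS, -2.54 to 0.67 (without mutant replicate 2) for AOC1, -0.91 to 0.62 (without mutant replicate 2; 0.35 without wild-type replicate 1) for OPR3 and -0.14 (without mutant replicate 1) to 0.51 for CORI3, and CORI3 also had -0.032 by median of ratios and -0.13 by quantile scaling. The cause was not tested.

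With the replicate number as a block, limma called 4520 genes over all, 5 members, adding AOC2 (adjusted p = 0.00686) and VSP2 (adjusted p = 0.0243), and 16 other pathway genes. The labels do not say that a number pairs columns across genotypes, and over all genes the replicate differences of the genotypes correlated at r = 0.0142, across genes that are not independent. The mRNA counts of 8 members and 16 other pathway genes stayed within 1.5 times under a q of 0.01. VSP1, VSP2 and CORI3 were not tested under the filter of 5 FPKM. Low levels and 2 columns per genotype limit what can be seen for these 3 genes.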
